A study of Mus musculus with 8 samples.

Results

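The regions described here are control m6A peaks that lay at the 5' end of a gene and were also found after doxycycline (Dox) treatment, in mouse embryonic stem cells carrying an inducible Setd2 knockdown. The members were chosen by the measured bounds of the peaks in both tables, and 3 conditions had to hold. The midpoint of the control peak, counted along its exonic bases, had to map at most 500 nt from the start of the protein-coding gene that held it on the same strand. That gene's RefSeq interval had to span 3000 nt or more. At least 1 exonic nt on that strand had to be shared with a peak of the Dox table. The control table held 25815 peaks, of which 22705 could be placed in such a gene. At 5' ends lay 2972 of them, and 1828 of these were members (61.5%, 95% exact interval 59.7 to 63.3). They belonged to 1790 genes. Over all placed control peaks the shared percentage was 81.6%, and because sharing chose the members nothing is read from that difference.

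The study held 8 libraries, 2 replicates each of m6A immunoprecipitate (IP) and matched input RNA from control cells and from Dox-treated cells. Both conditions used the same feeder-free line, which carries the Dox-inducible knockdown construct, grown as spheres on gelatin without serum. The medium of both conditions contained the MEK blocker PD0325901 at 1 µM, the GSK3 blocker CHIR99021 at 3 µM, and leukemia inhibitory factor at 1000 U/ml. Treated cells received Dox for 4 days at 1 µg/ml; control cells received none. No Dox-treated cells without the construct were among the samples, so an action of Dox itself and of the knockdown cannot be told apart. The deposited tables hold 1 peak list per condition with both replicates combined. The spread between replicates and the read depth are therefore unknown, and no test between conditions was possible. All intervals below are 95% exact (Clopper-Pearson) or order-statistic intervals and cover counting error only.

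N6-methyladenosine (m6A) is the most abundant internal modification of messenger RNA. It is written co-transcriptionally by a complex built on Mettl3 and Mettl14, read by YTH-domain proteins, and found mostly around stop codons and in 3' untranslated regions. Antibodies to m6A also bind m6Am, a cap-adjacent adenosine that is methylated on its base and on its sugar, so antibody peaks at transcript starts can hold either mark. Setd2 deposits H3K36me3, a histone mark of transcribed gene bodies that is low at promoters. Per the tables, Setd2 had 10 control peaks and 6 Dox peaks, with 0 at its 5' end in either. The tables hold no expression values, so they give no measure of the knockdown itself. All 8 naive stem cell markers examined had peaks in both tables. Of 6 feeder fibroblast markers, 1 (Col1a1) had peaks, 1 in control and 2 with Dox, and the other 5 had 0 in both. In a list of 16 fibroblast symbols used further below, 4 genes had a placed control peak, Vim and Fn1 among them.

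The members with the lowest false discovery rates (FDR) in the control table show what such a peak looks like, and the sequences at their gene starts are given first. Each window holds 60 bases from the RefSeq promoter table of GRCm38.p6 (mm10). The lower-case part is the 40 bases before the annotated transcription start, and the capitals are the first 20 transcribed bases, the first of which would be the cap-adjacent base of a transcript begun there. Slc7a5 and Slc6a8, also among the 8 lowest, are named without a window. Psme3 (chr11:101316173-101316232, plus strand), a proteasome activator subunit, has A as its first transcribed base, and its control peak began exactly at that base. Nr0b1 (chrX:86191735-86191794, plus), an orphan nuclear receptor expressed in naive stem cells, Gga2 (chr7:122021179-122021238, minus), a clathrin adaptor of the Golgi, and Pabpn1 (chr14:54894103-54894162, plus), the nuclear poly(A)-binding protein, also start with A. Rtn4 (chr11:29692858-29692917, plus), a reticulon of the endoplasmic reticulum, starts with C. Brix1 (chr15:10485918-10485977, minus), a ribosome biogenesis factor, starts with G. Counted from these first bases, with positions before them negative, the control peaks of Nr0b1, Gga2 and Brix1 began at -11, -24 and -10 nt. Those of Rtn4 and Pabpn1 began at 49 and 34 nt.
Psme3: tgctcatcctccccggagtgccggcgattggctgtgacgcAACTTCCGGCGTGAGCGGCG
Nr0b1: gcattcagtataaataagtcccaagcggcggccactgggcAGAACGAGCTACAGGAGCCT
Rtn4: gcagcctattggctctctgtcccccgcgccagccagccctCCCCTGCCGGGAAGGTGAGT
Gga2: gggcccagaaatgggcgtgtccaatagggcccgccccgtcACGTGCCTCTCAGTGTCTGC
Brix1: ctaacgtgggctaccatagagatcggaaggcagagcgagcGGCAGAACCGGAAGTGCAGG
Pabpn1: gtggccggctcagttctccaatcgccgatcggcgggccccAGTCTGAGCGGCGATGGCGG

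A further 5 windows belong to members whose bounds are described below. In Gsk3a (chr7:25237832-25237891, minus), Srsf6 (chr2:162931468-162931527, plus) and Hnrnpm (chr17:33685439-33685498, minus) the Dox peak began further downstream than the control peak did. In Pou5f1 (chr17:35505992-35506051, plus) and Map2k1 (chr9:64253586-64253645, minus) the bounds were identical.
Gsk3a: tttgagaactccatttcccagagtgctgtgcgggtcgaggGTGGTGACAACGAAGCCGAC
Srsf6: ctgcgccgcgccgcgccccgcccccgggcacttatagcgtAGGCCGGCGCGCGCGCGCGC
Hnrnpm: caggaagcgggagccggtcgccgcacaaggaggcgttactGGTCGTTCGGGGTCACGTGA
Pou5f1: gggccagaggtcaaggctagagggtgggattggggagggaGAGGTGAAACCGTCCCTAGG
Map2k1: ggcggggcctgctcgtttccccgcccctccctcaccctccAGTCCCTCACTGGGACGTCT

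The share of member genes with A at the annotated start lay within counting error of the other genes with control peaks and below that of all genes. A promoter window was matched for 1460 of the 1790 genes. A stood at the start in 27.9% of them (25.7 to 30.3), against 27.3% of 857 genes with only lost 5'-end peaks, 27.6% of 5113 other genes with a control peak, and 33.7% of all 14682 protein-coding genes with a window. G was the most frequent first base of member genes, at 51.0%, against 49.4%, 47.8% and 42.2% in the same groups. CA, the base before the start followed by the start, was found in 19.4% of member genes and 21.4% of all genes. On the transcribed strand, GGAC, the core of the usual m6A motif, occurred in the 50 nt after the start in 20.5% of member genes and 20.4% of all genes. GGACT, which holds GGAC, occurred there in 5% and 5.65%. TATAAA in the 250 nt before the start was found in 3.01% of member genes and 5.98% of all genes, with 2.92% and 3.52% in the other groups with control peaks. The median GC content of the window was 61.2% for member genes, 64.3% for genes with only lost 5'-end peaks and 58% for all genes. These matches are letters in a window and no measurement of a modified base.

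The rule placed midpoints near the gene start, and the bounds against annotated starts are given as a description. Of 1492 members whose gene had a start in the promoter table, 17.6% began exactly at it in control (15.7 to 19.7) and 58.7% within 50 nt of it. For the Dox partners these percentages were 10.1% (8.57 to 11.7) and 46.6%. The partner of a member is the Dox peak with the most exonic nt in common. The midpoints of members lay a median of 194 nt from the 5' end of the gene (quartiles 131 and 286), and those of partners 230 nt (quartiles 149 and 407). These distances run along the genome, so a midpoint that passes a splice junction moves by the length of the intron. A partner midpoint itself within 500 nt of the 5' end was found for 1502 members (82.2%, 80.3 to 83.9). Of the other 326, 317 lay further inside the same gene and 7 before its interval. Their median shift along exonic sequence was only 105 nt. Stat3, the transcription factor downstream of leukemia inhibitory factor, illustrates this, with a midpoint 308 nt from the 5' end in control and 28254 nt with Dox after a shift of 75 exonic nt.

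At 5' ends the Dox peak was more often narrower than wider when set against the control peak, whereas elsewhere in genes it was more often wider. Member widths had a median of 267 nt in control (quartiles 181 and 357, range 59 to 1020) and their partners 240 nt (quartiles 180 and 330, range 60 to 2369). The partner was wider for 647 members, 35.4% (33.2 to 37.6), while 64.1% of all shared placed peaks had a wider partner. It was narrower for 903 members (49.4%) and equally wide for 278 (15.2%). Pair by pair, the width of members changed by a median of 0 nt (-29 to 0, quartiles -89 and 56.5). The median change was 60 nt between the ends and 60 nt at the 3' end. Among 13957 shared peaks between the gene ends the median width was 269 nt in control and 360 nt with Dox, and 66.1% of partners were wider (65.3 to 66.9). Among 2747 shared peaks within 1000 nt of the 3' end, medians were 240 and 359 nt, and 72.8% were wider (71.1 to 74.4). The intervals of the 3 positions, which cover counting error only and no spread between replicates, did not overlap. The order of the medians at 5' ends depended on the peaks admitted: with only peaks at or below a log10 FDR of -20 in both tables they were 330 nt in control and 360 nt with Dox, and in the authors' shorter lists both were 300 nt. The share of wider partners in these settings, 47.6% and 41.2%, stayed below that of the other positions.

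**Figure D1:**
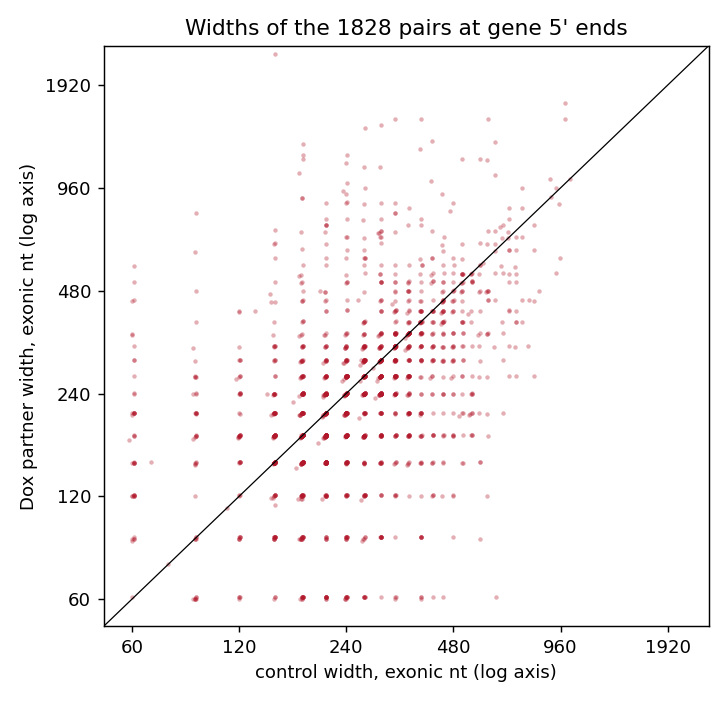
Each of the 1828 points is 1 member, with its control width on the x axis and the width of its Dox partner on the y axis, both in exonic nt on log axes; the line marks equal widths. Points below the line (narrower with Dox, 903) outnumber points above it (647), and a thin group of partners reaches far above the line, up to 2369 nt.

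At the upstream bound the Dox peak of a member began further downstream more often than further upstream, the reverse of peaks elsewhere. For 885 members the Dox peak began further downstream than the control peak (48.4%, 46.1 to 50.7), against 28.8% of all shared placed peaks. For 174 it began further upstream (9.52%, 8.21 to 11), against 44.6% of all. The remaining 769 (42.1%) began at the same base. Between the gene ends, 27.8% of partners began further downstream and 46.8% further upstream, and at the 3' end 20.7% and 57.0%. Where the bound of a member moved downstream, it did so by a median of 60 nt, or 21.2% of the control width. Peak bounds move in steps: 94.1% of the 1059 moved upstream bounds lay within 1 nt of a multiple of 30 nt. A peak that starts at the first base of its gene model has no exonic base before it, so its partner cannot begin further upstream.

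At the downstream bound the direction was the same at all positions. The Dox peak ended further downstream for 786 members (43.0%, against 58.0% of all shared placed peaks) and further upstream for 590 (32.3%, against 18.7%), and 452 (24.7%) ended at the same base. When both bounds are read together, 354 members (19.4%) had both bounds further downstream, 328 (17.9%) were trimmed at both ends, and 203 (11.1%) were trimmed only at the upstream end. With the upstream bound in place, 342 (18.7%) reached further downstream, 220 (12.0%) were trimmed at the downstream end, and 207 (11.3%) had identical bounds, against 7.26% of all shared placed peaks. Extension at both ends was seen for 90 (4.92%), upstream only for 42 (2.30%), and both bounds further upstream for 42 (2.30%).

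**Figure D2:**
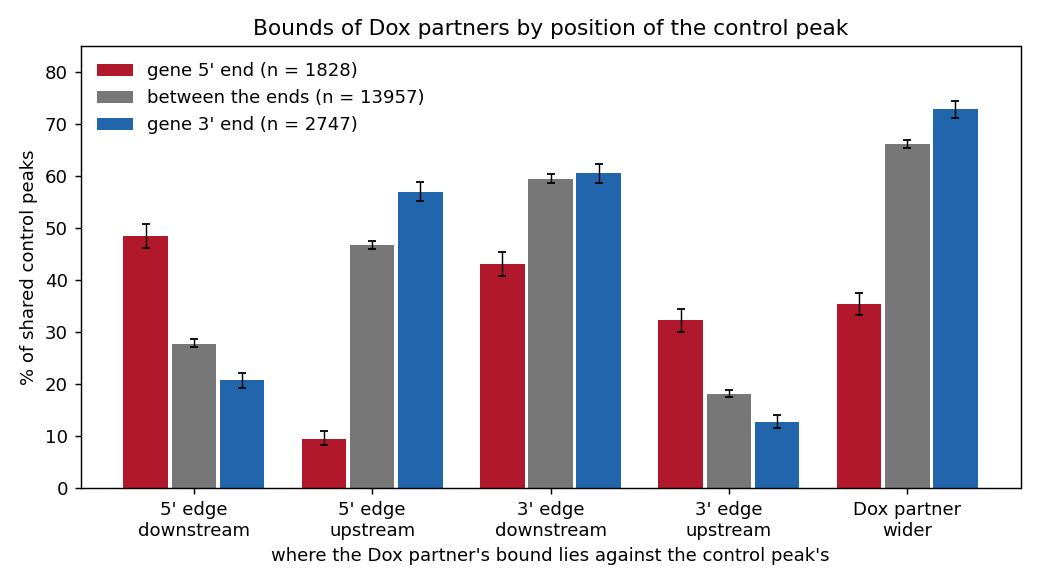
Bars give the percentage of shared control peaks (y axis) whose Dox partner has the bound or width named on the x axis, for peaks at the 5' end, between the ends and at the 3' end of genes; error bars are 95% exact intervals. The 5' end stands highest for partners that begin further downstream (48.4%) and lowest for those that begin further upstream (9.52%) or are wider (35.4%).

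In 1131 of the member genes, 2282 shared control peaks lay between the ends. Of these, 20.8% (19.1 to 22.5) had a Dox partner that began further downstream and 71.8% (69.9 to 73.7) a wider partner, against 27.8% and 66.1% of all shared peaks between the ends. They lay further from the members on both measures than peaks between the ends did in general. Their median midpoint shift was 0 nt, and 48.4% moved downstream.

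The same order of positions was seen in each of 4 bands of control peak strength. The strength used is the log10 FDR that the authors' table gives each control peak, lower being stronger. Peaks with a log10 FDR of minus infinity, the strongest, were left out of all bands at every position. They included 60 members. Partners of members began further downstream in 41.9% of 389 members above -5, in 51.8% of 602 from -20 to -5, in 57.5% of 391 from -50 to -20, and in 43.8% of 386 at -50 or less. Between the ends the same 4 bands gave 25.4%, 31.7%, 29.0% and 25.8%. A wider partner was found for 50.6%, 32.9%, 27.1% and 31.6% of members, and for 72.8%, 62.1%, 62.7% and 65.8% of peaks between the ends. In the strongest band the median width of members was 331 nt in control and 328 nt with Dox, while peaks between the ends measured 449 and 570 nt.

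**Figure D3:**
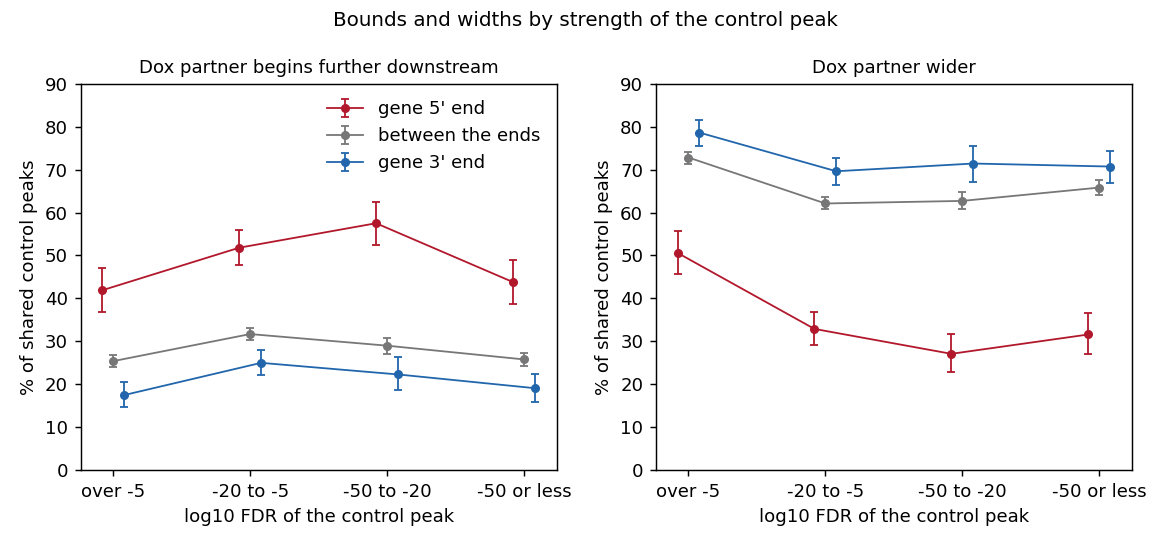
Points give the percentage of shared control peaks (y axes) whose Dox partner begins further downstream (left) or is wider (right), in 4 bands of the control peak's log10 FDR (x axes, weakest on the left), with 95% exact intervals. In every band the 5' end lies above the other positions on the left and below them on the right. The lowest value of the 5' end on the left is 41.9%. Peaks with a log10 FDR of minus infinity are in no band.

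The share of members that began further downstream varied over the distance from the 5' end, yet each value lay above those of the other positions. With the control midpoint within 100 nt of the 5' end, 40.9% of 220 partners began further downstream, and from 100 to 200 nt 44.6% of 740 did. From 200 to 300 nt the value was 54.7% of 464, in the next 100 nt 51.7% of 236, and in the last 100 nt up to the limit 53% of 168. The 4 bases at the annotated start gave 44.1% (A, 417 members), 51.1% (G, 765), 46.0% (C, 189) and 52.1% (T, 121), with overlapping intervals. Members in 1 exonic block gave 44.9% of 842 and those in 2 or more blocks 51.4% of 986.

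The midpoint moved little. The median shift was 15 nt downstream (quartiles 0 and 59, range -389 to 1139), 1 step of the midpoint, and 94.7% of the 1534 moved midpoints lay within 1 nt of a multiple of 15 nt. For 1051 members (57.5%) it stayed within 30 nt. It moved downstream for 1083 (59.2%, 57.0 to 61.5), against 50% of all shared placed peaks, and upstream for 451 (24.7%, 22.7 to 26.7), against 36.7%. For 294 (16.1%) it stayed in place. Shifts over 100 nt went downstream for 259 members (14.2%) and upstream for 49 (2.68%). Between the ends the median shift was 14 nt with 50.4% downstream, and at the 3' end it was 0 nt with 41.7% downstream.

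The size of the midpoint shift depended on which table chose the members. With the rule turned around, 1620 of 1896 Dox peaks at 5' ends shared exonic sequence with a control peak. Over these the median shift from control to Dox was 0 nt, 47.7% lay further downstream and 34.0% further upstream. At the upstream bound, 45.9% (43.4 to 48.3) of the Dox peaks began further downstream than their control partner and 10.7% (9.27 to 12.4) further upstream. The Dox peak was wider in 27.6% (25.4 to 29.8), below the 35.4% found when the control midpoint chose the pairs. Their median width was 211 nt and that of their control partners 270 nt.

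**Figure D4:**
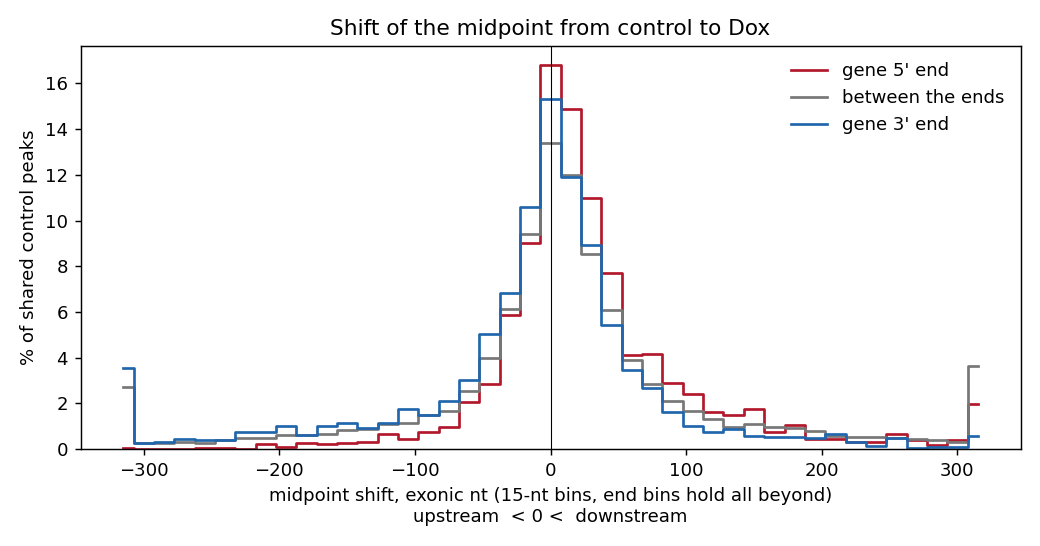
Lines give the percentage of shared control peaks (y axis) at each midpoint shift from control to Dox (x axis, exonic nt in 15-nt bins, downstream positive, the end bins holding all larger shifts), for the 3 positions in genes. The 5' end line leans to the downstream side, with a median of 15 nt, while the line between the ends has more weight in both end bins.

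Downstream shifts over 100 nt were more frequent where the Dox peak spanned several control peaks. A Dox peak that also covers a control peak further downstream has its midpoint moved that way by its length, so the difference is a description only. For 178 members (9.74%) the partner also overlapped at least 1 other control peak, and 106 of these (59.6%, 52.0 to 66.8) had such a shift. Of 1596 pairs in which neither peak overlapped another, 132 (8.27%, 6.97 to 9.73) did, and of the 54 other pairs 21. The pairs of a single control and a single Dox peak thus held more of the 259 such shifts, in number, than the spanning ones. A partner over several control peaks was more frequent elsewhere, at 20.9% between the ends and 19.5% at the 3' end. For 121 members (6.62%) more than 1 Dox peak overlapped, and with all overlapping Dox peaks joined 47.6% of members began further downstream and 10.6% further upstream. The partner spanned more exonic blocks than the member for 331 pairs (18.1%) and fewer for 188 (10.3%).

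The 6 largest downstream shifts among pairs with log10 FDR of -20 or less in both tables, a group of 418, came from long Dox peaks, of 1161 to 1702 nt. Snx18, a sorting nexin, had the largest, 865 nt: a control peak of 985 nt at chr13:113617580-113618564 met a Dox peak of 1702 nt that began 507 nt further in, while another Dox peak of 389 nt began at the same base as the control peak. Arc, a neuronal activity-regulated gene, went from 330 to 1529 nt with a shift of 690 nt. Cdca5 (sororin, a cohesin protector) went from 301 to 1470 nt with the upstream bound unmoved and a shift of 585 nt. Slc41a1, a magnesium transporter, went from 390 to 1528 nt and shifted by 569 nt. Eif3c, a translation initiation factor subunit, went from 596 to 1161 nt and shifted by 521 nt. Atg101, an autophagy initiation factor, went from 181 to 1200 nt and shifted by 510 nt. In all 6 the Dox partner overlapped 2 or 3 control peaks.

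The 6 largest upstream shifts in the same group were smaller. Prcc shifted by -195 nt as a control peak of 930 nt became 540 nt with the same upstream bound. Tysnd1, a peroxisomal protease, shifted by -133 nt and went from 713 to 328 nt. Gldc (glycine decarboxylase) and Nelfb (a subunit of the pausing factor NELF) each shifted by -119 nt with the upstream bound unmoved, from 478 to 239 nt and from 597 to 359 nt. For Prcc, Tysnd1 and Nelfb a further Dox peak overlapped the downstream part of the control peak, so that Dox peaks together held 811 of 930, 507 of 713 and 539 of 597 control nt. Gldc had no other Dox peak there. Trim71, an RNA-binding ubiquitin ligase of early embryos, and Syne4, a nuclear envelope protein, were unlike them: their Dox peaks began 179 and 238 nt further upstream, with shifts of -164 and -119 nt.

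**Figure D5:**
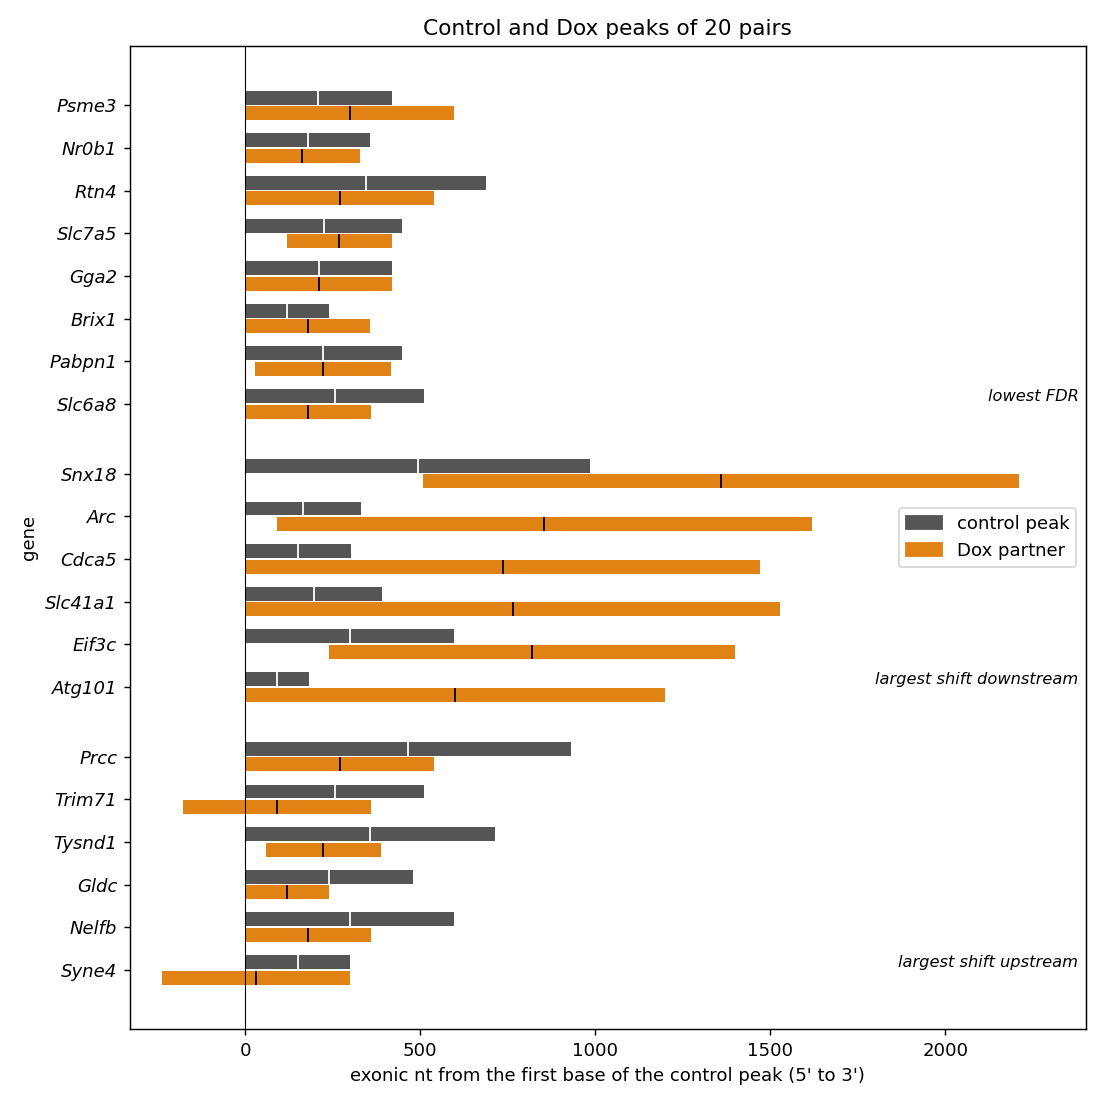
Horizontal bars show the control peak (grey) and the Dox partner (orange) of 20 members along exonic nt from the first base of the control peak (x axis), with a tick at each midpoint, in the 3 groups written at the right. Among the pairs with the lowest FDR 1 (Gga2) has identical bounds and Slc7a5 begins 119 nt further downstream, pairs with the largest downstream shift have long Dox peaks such as that of Snx18 (1702 nt), and most with the largest upstream shift have shortened Dox peaks.

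In the control table the FDR was recorded as 0 for 888 peaks, 60 of them members. Of these 60, 36 had a midpoint shift of at most 30 nt (60%, 46.5 to 72.4) and 15 identical bounds. The 8 named first are those with the highest fold of IP over input. Psme3 (ENSMUSG00000078652.9, chr11:101316213-101317203) had 3 blocks, 418 nt and a fold of 40.7 in the authors' control table. Its Dox partner kept the upstream bound and reached 179 nt further, at 597 nt. Brix1 (ENSMUSG00000022247.12, chr15:10485392-10485947) likewise went from 238 to 357 nt at its downstream end. Nr0b1 (ENSMUSG00000025056.4, chrX:86191764-86192119) was trimmed by 1 step, from 356 to 327 nt. Rtn4 (ENSMUSG00000020458.16, chr11:29692947-29693634) went from 688 to 539 nt, and Slc6a8, the creatine transporter (chrX:73673150-73673659), from 510 to 360 nt, both at the downstream end. Slc7a5, a transporter of large neutral amino acids (chr8:121907216-121907664), began 119 nt further downstream and went from 449 to 300 nt. Pabpn1 (ENSMUSG00000022194.15, chr14:54894177-54894701) lost 29 nt upstream and 30 nt downstream, and Gga2 (ENSMUSG00000030872.14, chr7:122010658-122021222) had identical bounds over 420 nt.

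Of the 418 pairs with log10 FDR of -20 or less in both tables, 82 had identical bounds. After Gga2, those with the lowest control FDR by the naming rule were Rbbp7, a histone-binding chaperone subunit (361 nt), Ywhaq, a 14-3-3 protein (506 nt), Yars, the tyrosyl-tRNA synthetase (419 nt), and Cnn3, an actin-binding calponin (328 nt). Their control peaks lay 210, 415, 295 and 120 nt from the 5' end of the gene.

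Strong members, with a control log10 FDR of -20 or less, covered most of the range of widths. The widest was that of Sfswap, a splicing regulator, with 1020 nt at chr5:129501221-129502240, and its Dox partner of the same width lay 30 nt downstream. Wrnip1 had 958 nt in control and 599 nt with Dox, beginning 389 nt further downstream. Foxo6, a forkhead factor, had 951 and 862 nt. The narrowest strong members were Pa2g4 (61 nt in control, 150 nt with Dox), Ahsa1, an Hsp90 co-chaperone (76 and 76 nt), Mrpl49, a mitochondrial ribosomal protein (120 and 90 nt), and Frg1 (147 and 470 nt). Among members of any strength, most blocks were seen in St13, an Hsp70-interacting protein, with 6 blocks in control and 12 with Dox. Pecam1, Esd and Itgb1bp1 followed with 5 control blocks, and Ankrd13a (control log10 FDR -11.6) and Map2k7 had Dox partners of 11 and 8 blocks.

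Some genes held more than 1 member. There were 37 such genes, and in 25 of them the members shared exonic nt with each other. Cox17, a copper chaperone, had overlapping members of 270 and 285 nt under different gene identifiers, and each had a Dox partner with the same bounds. Rbm42, an RNA-binding protein, likewise had members of 300 and 448 nt under different identifiers with the same Dox partner of 508 nt. In all, 57 members shared exonic nt with another member, and the 1828 members had 1811 distinct partners. Such members are not independent of each other, and a peak on overlapping gene models cannot be assigned to 1 of them.

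Just inside the 500-nt limit lay Sfswap and Syne4 (both 500 nt), Vti1a (500 nt, from 359 to 509 nt wide) and Rmi1 (499 nt, from 240 to 269 nt wide). Just outside lay shared peaks of Eif3b and Psmc3 (both 501 nt) and of Cdc42bpg and Clpb (both 502 nt), with widths going from 957 to 1046, 810 to 959, 240 to 240 and 271 to 241 nt.

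The member genes are described next by 24 lists of symbols. Of 9205 genes with a placed control peak, 1790 (19.4%) had a member, and of 2878 with a control peak at the 5' end the same genes made up 62.2%. Over all members, 48.4% of partners began further downstream, 9.52% began further upstream, and 35.4% were wider. Among naive pluripotency factors 26 genes had a placed control peak, 16 of them at the 5' end, and 12 had a member. Pou5f1 (ENSMUSG00000024406.16, chr17:35506018-35507555), the core factor Oct4, had a peak of 540 nt over 2 blocks with identical bounds in both tables, and an FDR recorded as 0 in both. The zinc finger factors Klf4 and Klf5 both had partners that began further downstream, by 179 and 59 nt, and went from 269 to 180 and from 446 to 298 nt. Gbx2, a homeobox factor, began 209 nt further downstream and went from 448 to 239 nt. Myc lost 90 nt at the downstream end (269 to 179 nt), and its paralogue Mycn 30 nt at the upstream end (330 to 300 nt). Zfp42 (Rex1) and Dppa3 (Stella) had short control peaks of 181 and 90 nt that lay within Dox peaks of 1290 and 625 nt covering 2 control peaks each. For the list, 5 partners began further downstream, 1 further upstream and 6 at the same base. The 5'-end peaks of Fgf4, L1td1, Rif1 and Tead4 were not shared.

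Among the genes that write, read or erase m6A, 10 had a 5'-end control peak and 5 of them a member. The nuclear reader Ythdc1 kept identical bounds over 300 nt at chr5:86804221-86804520. The cytoplasmic reader Ythdf2 had a control peak of 300 nt of which 61 nt were left with Dox, in a weak Dox peak with a log10 FDR of -1.91. The readers Igf2bp1 and Igf2bp2 went from 211 to 181 and from 270 to 180 nt, and Hnrnpa2b1 kept identical bounds over 240 nt. None of the 5 had a wider partner. The 5'-end peaks of Fto, an eraser, and of Mettl14, Rbm15b and Zc3h13, members of the writer complex, were not shared, nor was that of Ythdf3.

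For H3K36 methylation genes, 5 had a 5'-end control peak and 2 a member. Mtf2, a Polycomb protein that reads H3K36me3, kept 271 nt while both bounds moved 30 nt downstream, and Ash1l, an H3K36 methyltransferase, went from 211 to 181 nt. Those of Kdm4b, Phf1 and Psip1 were not shared. Among other histone and DNA methylation enzymes 9 of 11 genes had a member, and 6 partners began further downstream. Eed (ENSMUSG00000030619.9, chr7:89976903-89980983), a core Polycomb subunit, had a control peak of 719 nt that 2 Dox peaks overlapped. The partner, of 389 nt, began 359 nt further in, and the other, of 300 nt, began at the same base as the control peak. Together they held 660 of the 719 nt. Kmt2c, an H3K4 methyltransferase, began 360 nt further downstream. Suz12, another Polycomb subunit, went from 301 to 151 nt, and the arginine methyltransferase Prmt5 from 361 to 331 nt. The opposite was seen in Uhrf1, a maintenance factor of DNA methylation, whose peak of 241 nt lay within a Dox peak of 1200 nt and 8 blocks.

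Chromatin remodellers and acetylation genes had a member in 10 of 14 genes, with 4 upstream bounds further downstream and 0 further upstream. Ep300, an acetyltransferase, also overlapped by a short Dox peak inside the partner, went from 570 to 420 nt, losing 90 nt upstream and 60 nt downstream. Kat2a lost 30 nt downstream, and Sin3b, a corepressor scaffold, gained 30 nt there. Smarcb1 had identical bounds over 210 nt. Of 14 genes of RNA polymerase II pausing and elongation, 11 had a member, with 5 upstream bounds further downstream and 2 further upstream. Supt5, the elongation factor subunit Spt5, began 179 nt further downstream and went from 598 to 479 nt. Polr2a, the largest polymerase subunit, gained 30 nt downstream, and Supt16 of the histone chaperone FACT had identical bounds over 181 nt.

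All 15 splicing factors with a 5'-end control peak had a member, as did all 10 translation factors. Srsf6 (ENSMUSG00000016921.14, chr2:162931528-162932222), a serine- and arginine-rich splicing factor, began 119 nt further downstream and went from 479 to 360 nt. Hnrnpm (ENSMUSG00000059208.14, chr17:33677358-33685513) kept 330 nt while both bounds moved 60 nt downstream. Srsf7, Tra2b and Sf3b1 had identical bounds over 211, 240 and 241 nt. Snrnp70 of the U1 particle and Hnrnpd reached further downstream from the same start, with shifts of 180 and 239 nt. For the list, 8 partners began further downstream, 1 (Srsf5) further upstream and 6 at the same base. Among translation factors 8 began further downstream. Eif4g1, the scaffold of the cap-binding complex, lost 30 nt upstream, its paralogue Eif4g2 gained 30 nt downstream, and Eif5 began 149 nt further downstream with 120 nt left of 239 nt. Eif4ebp1 and Eif4ebp2, repressors of cap-dependent translation, began 89 and 30 nt further downstream. Eif4e2 was the exception, beginning 30 nt further upstream.

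The signalling pathways touched by the medium were represented too. Of 10 RAS, MEK and ERK pathway genes with a 5'-end control peak, 4 had a member. Map2k1 (ENSMUSG00000004936.8, chr9:64212676-64253631), the kinase MEK1 that PD0325901 inhibits, had identical bounds over 685 nt and 3 blocks. Shc1, an adaptor, and Dusp6, an ERK phosphatase, lost 30 and 59 nt at the downstream end. In the WNT and GSK3 pathway 9 of 13 genes had a member. Gsk3a, a target of CHIR99021, began 269 nt further downstream and went from 509 to 270 nt. Ctnnb1 (beta-catenin) and Tcf7l1 both began 30 nt further downstream. Among BMP, Nodal and TGF-beta pathway genes 5 of 9 had a member. Smad7, an inhibitory Smad, had identical bounds over 570 nt and the highest fold among the named members of that list, 77.9 in the authors' control table. Ski, a Smad corepressor, kept 120 nt of 479 nt, in a Dox peak with a log10 FDR of -3.03.

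Cell cycle regulators had a member in 10 of 16 genes and p53 and apoptosis genes in 7 of 9. Plk1, a mitotic kinase, went from 417 to 328 nt at its downstream end. Mki67, a proliferation marker, went from 301 to 91 nt, in a weak Dox peak with a log10 FDR of -1.95. Sesn2, a p53 target, lost 90 nt at the downstream end. Phlda3, another, had a control peak of 750 nt of which 2 Dox peaks together held 661 nt. Trp53 itself had a peak of 151 nt that reached 179 nt further with Dox. Of 2 germ layer or primed-state regulators with a 5'-end peak, Sox11 had a member (479 to 240 nt, beginning 239 nt further downstream) and T had none. In the fibroblast list, which stem cells also express in part, Vim had a member of 202 nt that was matched by a Dox peak with the same bounds and also lay within a Dox peak of 478 nt.

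The last lists are gene families taken by symbol. Ribosomal protein genes had a member in 5 of 13 genes, with Rpl27 beginning 207 nt further downstream and Rps14 29 nt. Ubiquitin-specific proteases had 7 of 16, zinc finger Zfp genes 23 of 41, solute carriers 27 of 44, DEAD and DEAH box genes 10 of 17, RING finger genes 9 of 14, transmembrane Tmem genes 18 of 26, kinesins 6 of 7 and histone cluster genes 2 of 2. In the Zfp list 13 of 24 members had a wider partner, among them Zfp710 (271 to 541 nt), against 35.4% of all members. In the Tmem list 3 of 18 did, and Tmem59 had identical bounds over 537 nt. Of the 29 members in solute carriers 15 began further downstream and 4 further upstream, against 48.4% and 9.52% of all members. These counts describe the lists, whose genes differ in expression and length, and no list was tested.

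The 1144 lost 5'-end peaks, those without a Dox overlap, were narrower and weaker. They had a median width of 151 nt against 267 nt for members, a median log10 FDR of -3.69 against -16.9, and a single block in 72.8% against 46.1%. A wider peak has more bases that can meet a Dox peak, so width is tied to the rule that chose the members. Nothing is read from that difference. Median folds in the authors' control table were 6.46 for lost peaks and 7.05 for members. In the same table shared peaks between the ends had a median fold of 4.43 and those at the 3' end 3.69. In the authors' Dox table the partners of members had a median fold of 3.90, close to the 4.04 and 3.76 of partners at the other positions. Each value describes peaks within its own list.

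Member genes were shorter than others with peaks. Their median interval was 19474.5 nt, against 26571.5 nt for genes with only lost 5'-end peaks and 26591 nt for all 7415 other genes with a placed control peak, which include the former. The member was the only placed control peak of the gene in 22.6% of member genes. Of the 7415 other genes 38.4% had a single control peak.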

How the data were processed

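The deposited data were peak tables of m6A sequencing, made by the authors with exomePeak, per the table names, with both replicates of a condition in 1 table. Mapping with TopHat2 2.1.1 to mm10 and read checks with FastQC 0.11.5 are given by the submitters' processing notes, and exomePeak's version and settings were not given in the sources used here. RNA was sonicated and libraries were stranded, per the labels' protocols. Each deposited row gives exonic blocks, a fold enrichment (ratio of IP over input) and a log10 FDR, a score of minus infinity where the FDR was recorded as 0. The authors also deposited a shorter list per condition, used here only as an alternative. These authors' values were compared only within 1 table.

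Positions were set with RefSeq protein-coding genes of GRCm38.p6. A gene's strand came from the RefSeq promoter table (81.6% of members) or else from the identifier with most peaks in it. Where several genes held a midpoint, the gene favoured by the identifier's other peaks and then the shortest was taken. Sharing needed 1 exonic nt on the strand. Shifts were counted in exonic nt over the blocks of both peaks, positive downstream. Sequence was read only from the RefSeq promoter table, and UTR and coding parts were not assigned. Named genes were the 8 lowest control FDRs, up to 3 per list, and, among strong peaks, the largest downstream, largest upstream and 0 shifts and the extreme widths. Block counts, limit cases and genes with more than 1 member were taken from peaks of any strength. Genes beyond these were named as examples from the lists after their values were seen. Members and lists were chosen with earlier results of these data known. Scripts used Python 3.11.15, numpy 2.4.6, pandas 2.3.3, scipy 1.17.1 and matplotlib 3.10.9. Overlap and shift functions were tested on simulated data, with 0 errors in 659 overlapping pairs. Replicates could not be compared, so values carry 95% intervals for counting error and no test.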

Additional observations from a re-analysis of the deposited data

How the results depend on the processing

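No paired analysis was possible because both replicates of a condition are combined in 1 table, and for the same reason no replicate could be left out. The order of the median widths turned under 1 setting, both tables limited to strong peaks, given below. Over 14 settings that chose members by the control midpoint, partners began further downstream for 36.8% to 51.0% of members, 20% to 29.5% of peaks between the ends and, at the 3' end, 14.7% to 22.5%; they began further upstream for 6.99% to 11.5%, 41.4% to 48.2% and 51.6% to 58.9%, and were wider for 31.9% to 47.6%, 60.5% to 73.1% and 68.1% to 76.3%.

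With a window of 250 nt, 59.5% of 5'-end peaks were shared, median widths were 240 and 239 nt (control, Dox), 75.2% of partners were 5'-end peaks, 45.8% began further downstream and 7.42% further upstream. With 1000 nt, 84.9% were 5'-end peaks and 11.5% began further upstream. With genes of 10000 nt or more, 58.7% were shared, 32.8% of partners were wider and 51.0% began further downstream. In the authors' shorter lists the values were 53.1% shared, 62.3% of midpoints downstream, widths 300 and 300 nt, 41.2% wider, 77.3% at 5' ends, and bounds 41.5% downstream and 7.73% upstream. Limiting both tables to a log10 FDR up to -5 gave 55.7%, 63.6%, 300 and 300 nt, 41.3%, 77.3%, 41.8% and 7.65% in that order, and up to -20 gave 48.9%, 64.8%, 330 and 360 nt, 47.6%, 73.2%, 36.8% and 6.99%. The genomic midpoint gave 54.1% shared, 56.0% of midpoints downstream, widths 240 and 211 nt, and 11% of bounds upstream. Alternatives chosen after seeing the data were those for the bounds and the next 3. Pairs without a further overlap gave a Dox width of 239 nt, 31.9% wider and 87.3% at 5' ends. Members chosen by the Dox midpoint had a median shift of 0 nt, 47.7% of midpoints downstream, widths 270 and 211 nt, 27.6% wider and 45.9% of bounds downstream. With strands from the promoter table only, all values stayed within their counting intervals. The share with A at the start stayed so in all 11 alternatives; the causes of these differences were not tested.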
